A study of Homo sapiens with 6 samples.

Results

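The genes of blood coagulation, fibrinolysis and complement were examined in Hep3B cells, a human hepatocellular carcinoma line that makes many of the plasma proteins of the liver. The 48 genes were chosen by name and by pathway, not by their values, though earlier results of these data were known. The deposited tables held 23406 features, and all 48 genes were found there by Ensembl identifier. They comprised 3 fibrinogen chains, 11 clotting factors and contact-system proteins, 6 anticoagulants, 6 fibrinolysis genes, 8 genes of complement activation, 6 terminal complement components and 8 complement regulators. RNA had been sequenced from 3 libraries with a control shRNA (shControl) and 3 with an shRNA against NXN (shNXN), which encodes nucleoredoxin, a protein of the thioredoxin family. Both groups were Hep3B cells transduced with lentivirus and kept in puromycin at 2 μg/mL for selection, and each had 1 library from day 7, 1 from day 9 and 1 from day 11. Day is therefore also the replicate number. Nothing in the labels says that the days came from separate transductions, so the p-values measure the spread between these libraries, which may be technical, and which NXN shRNA was used is not given in the sources used here. Levels in CPM are counts scaled to the total of the library, adjusted by a normalization factor (TMM). NXN was at 181, 138 and 143 CPM in the shControl libraries of days 7, 9 and 11. In the shNXN libraries it was at 42.7, 47.5 and 39.5 CPM. The 2 groups did not overlap, and NXN fell by 1.83 on the log2 scale (standard error, SE, 0.16, edgeR adjusted p = 0.0378).

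Coagulation is a cascade of zymogens that ends when thrombin cuts fibrinogen into fibrin, and fibrinolysis is the cascade that dissolves the clot through plasmin. Complement is a related set of proteases that tag a surface through C3 and end in a pore built from C5 to C9. Hepatocytes make most of the soluble proteins of both systems, and a set of inhibitors in plasma and on the cell surface, among them protein S, TFPI, CD46 and CD59, keeps each cascade in check.

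The 3 fibrinogen chains are parts of one protein and differed in level, and the bases before their transcription start are printed beside the levels. Any link between the motifs in these bases and the levels was not tested. Fibrinogen is secreted as a dimer of α, β and γ chains encoded by FGA, FGB and FGG, neighbours on chromosome 4. The sequences are the 250 bases before each RefSeq start on GRCh38.p14, read 5′ to 3′ on the gene's strand. FGA is at chr4:154590743-154590992 on the minus strand, FGB at chr4:154562730-154562979 on the plus strand and FGG at chr4:154612657-154612906 on the minus strand. Capitals mark 3 short motifs searched on both strands, namely the HNF1 half-site GTTAAT (or ATTAAC), the core CTGGGA (or TCCCAG) of interleukin-6 response elements and the C/EBP motif TTNNGCAA (or TTGCNNAA).
FGA: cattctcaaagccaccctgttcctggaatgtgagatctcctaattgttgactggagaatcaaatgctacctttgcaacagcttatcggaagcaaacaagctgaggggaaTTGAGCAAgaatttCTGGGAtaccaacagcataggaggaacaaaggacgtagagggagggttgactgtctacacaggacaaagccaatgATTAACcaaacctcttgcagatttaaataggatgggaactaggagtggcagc
FGB: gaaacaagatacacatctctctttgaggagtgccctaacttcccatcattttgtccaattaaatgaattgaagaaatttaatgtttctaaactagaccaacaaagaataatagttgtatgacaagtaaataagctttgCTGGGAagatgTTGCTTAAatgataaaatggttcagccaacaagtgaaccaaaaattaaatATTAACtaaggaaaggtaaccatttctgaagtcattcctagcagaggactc
FGG: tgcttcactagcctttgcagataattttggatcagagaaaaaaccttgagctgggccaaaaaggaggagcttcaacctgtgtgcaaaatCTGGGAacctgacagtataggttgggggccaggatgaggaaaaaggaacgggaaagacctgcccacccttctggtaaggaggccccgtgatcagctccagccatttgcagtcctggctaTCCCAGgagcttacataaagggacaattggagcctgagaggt
The FGA window held all 3 motifs, beginning 52, 127 and 141 bases before the start for HNF1, interleukin-6 core and C/EBP. The FGB window also held all 3, at 51, 112 and 101 bases. The FGG window held the interleukin-6 core at 161 and 42 bases and no letters of the other 2 motifs. The HNF1 half-site occurred in 6.22% of 27305 RefSeq windows of the same length and in 7 of the 40 members with a window (C4BPA, CFI, F13B, F2, FGA, FGB and KLKB1). The interleukin-6 core occurred in 28.8% of all windows and in 15 of 40, and the C/EBP motif in 9.13% and in 9 of 40. In FPKM, which is scaled to transcript length, FGA was listed at 39.2, 33.8 and 11.1 in shControl cells on days 7, 9 and 11 and at 33.7, 27.3 and 22.8 in shNXN cells. FGB was at 35.8, 46.7 and 8.64 FPKM in shControl and at 27.4, 49.3 and 24.0 in shNXN cells. FGG was at 1.41, 1.17 and 0.15 FPKM in shControl and at 1.42, 1.24 and 1.11 in shNXN cells. The FPKM of FGA was 0.553 to 1.28 times that of FGB in the 6 libraries, but 20.5 to 28.9 times that of FGG in 5 of them, and the FPKM of FGB was 19.3 to 39.9 times that of FGG in the same 5. The shControl library of day 11 was the lowest of the 6 for all 3 chains, and its ratios of 73.7 and 57.6 rest on 3 counts of FGG. The other 5 libraries held only 9 to 28 counts of FGG, so their ratios are imprecise too.

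Of the 48 genes, 38 had a median of at least 1 FPKM over the 6 libraries, 24 at least 10 and 4 at least 100. The 4 were CLU (clusterin, a secreted chaperone that blocks the terminal pore), C3 (the central complement protein), SERPINF2 (α2-antiplasmin, the plasmin inhibitor) and CD59 (a membrane inhibitor of the terminal pore). Their median FPKM values were 2459, 411, 208 and 140.0. CLU alone made up 59.0 to 70.0% of the summed FPKM of the 48 genes in a library. In CPM, which is not scaled to length, C3 was above CLU in each library, at 1510 to 2994 against 627 to 1223 CPM. The FPKM of CLU was above its CPM in each library, at 1713 to 3440, although its longest transcript has 3080 bases. With 5263 bases, C3 was at 314 to 734 FPKM, below its CPM. The lead of CLU and its share of the summed FPKM thus rest on a length scaling that its longest transcript does not account for. Which length was used was not checked. Together the 48 genes took 0.338 to 0.567% of all counts.

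**Figure D1:**
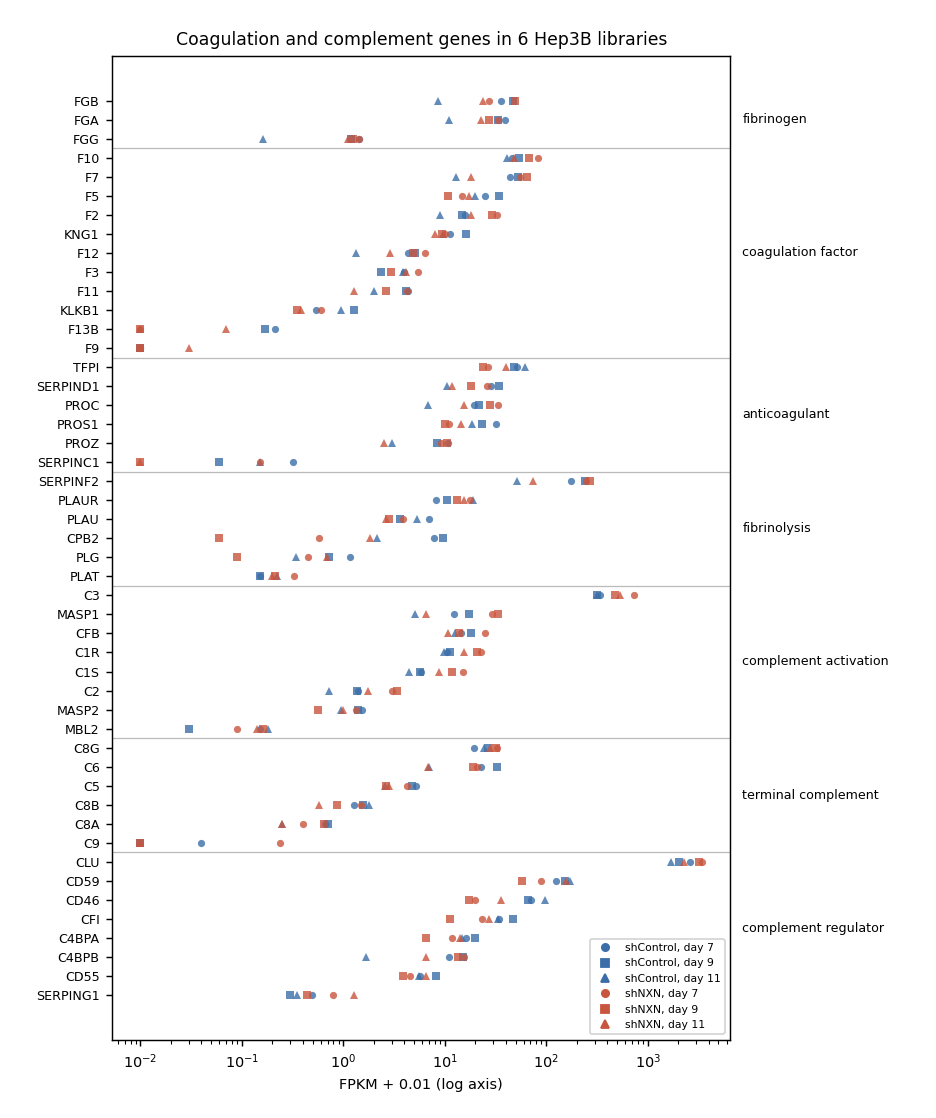
FPKM of the 48 genes (x, log axis, with 0.01 added so that 0 can be drawn) in each of the 6 libraries, grouped by class. CLU lies highest with a median of 2459 FPKM, and F9 and C9, with a median of 0, lie at the left edge.

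Among the clotting factors, F10 (factor X, which cleaves prothrombin) and F7 (factor VII, which starts the cascade with tissue factor) were highest, with median FPKM values of 50.6 and 48.4. F5 (the cofactor of factor X) and F2 (prothrombin) followed at 18.5 and 17.04 FPKM. KNG1, F12, F3 and F11, which encode kininogen, factor XII, tissue factor and factor XI, had medians between 3.41 and 9.84 FPKM, and KLKB1 (prekallikrein) had 0.565. F9, the gene of factor IX, was listed at 0 FPKM in 5 libraries and at 0.02 in the other. F13B, the carrier subunit of factor XIII, reached 0.20 FPKM at most. The anticoagulants TFPI (tissue factor pathway inhibitor), SERPIND1 (heparin cofactor II), PROC (protein C) and PROS1 (protein S) had medians of 44.6, 22.1, 20.6 and 16.6 FPKM, and PROZ (protein Z) 8.82. SERPINC1, which encodes antithrombin, reached no more than 0.31 FPKM. In fibrinolysis the plasmin inhibitor SERPINF2 was at 52.0 to 268 FPKM, while PLG (plasminogen) stayed between 0.08 and 1.15 FPKM. PLAT (tissue plasminogen activator) had a median of 0.195 FPKM, PLAU (urokinase) of 3.74 and its receptor PLAUR of 14.4. CPB2, a carboxypeptidase that slows clot dissolution, had a median of 2.00 FPKM.

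Complement activation genes other than C3 were lower. MASP1, a protease of the lectin pathway, CFB (factor B of the alternative pathway) and C1R (a protease of the C1 complex) had medians of 14.9, 14.1 and 13.5 FPKM. C1S, the partner of C1R, had 7.31, C2 1.57 and MASP2 1.15 FPKM, and the lectin MBL2 no more than 0.17. In the terminal pathway C8G and C6 led with 27.5 and 19.96 FPKM, C5 had 3.54, C8B 1.38 and C8A 0.51, and C9, the subunit that forms most of the pore, was listed at 0 in 4 libraries and at 0.23 at most. C8A, C8B and C8G encode the 3 chains of C8, so their levels were as unequal as those of fibrinogen. Of the regulators, CD46 (a membrane cofactor that inactivates C3b) and CFI (factor I, the protease it works with) had medians of 50.6 and 30.5 FPKM. C4BPA and C4BPB, the chains of C4b-binding protein, had 14.4 and 12.2, CD55 (which breaks up C3 convertases) 5.65 and SERPING1 (the C1 inhibitor) 0.455. The liver-made MBL2, SERPINC1, F9, PLG and C9 were thus near the limit of detection while C3, CLU and SERPINF2 were among the abundant transcripts.

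These RNAs were read from whole cultures, in which fewer cells of a type and less RNA per cell cannot be told apart. All 10 hepatocyte markers examined reached 1 FPKM, but their summed FPKM was 9154 to 16960 in shControl and 4890 to 10290 in shNXN cells, and albumin was at 6447, 12145 and 4409 FPKM in shControl against 1084, 489 and 4735 in shNXN cells. The lower sum came mainly from ALB, AFP and APOB, whereas SERPINA1, TF, HNF4A, FOXA2 and KRT18 had higher mean FPKM in shNXN cells (985 and 1386 for SERPINA1, 103 and 138 for HNF4A in shControl and shNXN). The 4 endothelial markers found, which include VWF, summed to 0.02 FPKM at most. The 5 leukocyte markers summed to 132 to 172 FPKM in shControl and 177 to 296 in shNXN cells, nearly all from LYZ and CD68. The defining leukocyte gene PTPRC was at 0.04 FPKM or less in each library, and of 4 platelet genes PF4 and PPBP were listed at 0, while GP1BA was at 0.34 to 1.24 and ITGA2B at 0.24 to 2.11 FPKM. Fibroblast markers summed to 2.30 to 4.39 FPKM. The part of these marker differences in the results below was not tested. The libraries summed to between 15349382 and 16332589 counts, and 41 of the 48 genes passed the filter on low counts. The 7 that did not were F9, F13B, SERPINC1, PLG, PLAT, MBL2 and C9, so counts below are over 41 genes.

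The first question was whether the level of these genes differed between day 11 and the earlier days. Because day is also the replicate number, an effect of culture age cannot be told apart from a difference between replicates. F7, SERPINF2, MASP1, PROZ, SERPIND1 and FGA were among the genes with lower counts at day 11 than at days 7 and 9 in both groups. Both day 11 libraries lay below all 4 earlier libraries for 13 of 41 genes (31.7%), against 11.5% of all 14071 features tested. They were FGA, F7, F10, F12, PROC, PROZ, SERPIND1, SERPINF2, MASP1, C6, C8A, C4BPB and CLU. Both day 11 libraries lay above the earlier ones for CD59 and PLAUR (4.88%), against 10.9% of all features. With 2 libraries per day, edgeR's quasi-likelihood test, fitted with group and day as terms, called 0 of 41 genes and 0% of all features between day 11 and day 7. Without adjustment for multiple tests, 16 of 41 genes had p under 0.05 in edgeR (13 lower, 3 higher), against 20.2% of all features. DESeq2, with the same terms, called 11 of the 34 genes for which it gave an adjusted p, all lower, against 6.04% of all features (3.36% lower). The 11 were FGA, F2, F7, PROC, PROZ, SERPIND1, SERPINF2, MASP1, C6, C4BPB and CLU. The median log2 difference over the 41 genes was -0.55, with 30 lower, against 0.07 over all features, and within the groups it was -0.69 in shControl and -0.37 in shNXN cells. The day libraries also differed in how counts followed transcript GC content, and after removal of each library's GC trend the median was -0.53, with 36 genes lower.

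F7 was at 88.9, 104 and 23.4 CPM in shControl cells on days 7, 9 and 11 and at 106, 124 and 36.4 CPM in shNXN cells. Each group was thus highest on day 9 and lowest on day 11. The log2 difference of day 11 from day 7 was -1.72 (SE 0.16, edgeR adjusted p = 0.103 and 4.54e-13 from DESeq2). MASP1 was at 34.8, 49.8 and 8.53 CPM in shControl and at 73.2, 74.7 and 18.9 CPM in shNXN cells. Day 11 was lowest in both groups, and the day difference, the largest of the 41 genes, was -1.98 on the log2 scale (SE 0.21, edgeR adjusted p = 0.103 and 7.07e-12 from DESeq2). SERPINF2 was at 279, 375 and 70.0 CPM in shControl and at 293, 338 and 117 CPM in shNXN cells. Its 4 earlier libraries were all at 279 CPM or more, and the log2 difference was -1.64 (SE 0.24, edgeR adjusted p = 0.133 and 2.18e-08 from DESeq2). Of the vitamin K-dependent anticoagulants, PROZ and PROC had log2 differences of -1.83 and -1.11 (SE 0.26 and 0.26, edgeR adjusted p = 0.133 and 0.170). PROZ was at 13.2, 10.5 and 3.62 CPM in shControl and at 10.8, 12.5 and 3.09 CPM in shNXN cells. PROC was at 19.9, 21.4 and 7.05 CPM in shControl and at 29.9, 29.1 and 17.2 CPM in shNXN cells. In both genes the day 11 library was the lowest of its group. PROS1, also vitamin K-dependent, did not share this, with a log2 difference of 0.2 (SE 0.43). It was lower on day 11 than on day 7 in shControl cells and higher in shNXN cells. SERPIND1 and C4BPB had log2 differences of -1.31 and -1.95, F12 of -1.33 and C6 of -1.23.

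FGA was at 81.2, 71.1 and 22.7 CPM in shControl and at 66.6, 55.0 and 47.6 CPM in shNXN cells. The day 11 value was the lowest in each group, with a log2 difference of -1.10 (SE 0.38, edgeR adjusted p = 0.223 and 0.0346 from DESeq2). FGB was at 34.0, 41.5 and 9.57 CPM in shControl and at 17.7, 22.7 and 19.9 CPM in shNXN cells, so it was lowest on day 11 in shControl but not in shNXN cells. FGG, with 0.184 CPM in shControl at day 11 and 0.552 to 1.72 CPM elsewhere, was likewise lowest there. CLU was at 1223, 1124 and 627 CPM in shControl and at 1148, 966 and 871 CPM in shNXN cells, a log2 difference of -0.67 (SE 0.19, edgeR adjusted p = 0.189 and 0.0363 from DESeq2). C3, by comparison, had a log2 difference of -0.15 (SE 0.14). The values of C5, CFI, C8G and F5 differed by less than 0.1 on that scale with standard errors of 0.22 to 0.57. For C5, F5 and CFI these values average opposite changes in the 2 groups. The log2 differences were -0.88, -0.43 and -0.24 in shControl and 0.82, 0.26 and 0.31 in shNXN cells. TFPI, CD46 and CD59 were the 3 genes higher at day 11 with an unadjusted p under 0.05 in edgeR, with log2 differences of 0.57, 0.85 and 0.55 and adjusted p values of 0.182, 0.214 and 0.245. After the GC correction they were 0.25, 0.39 and 0.39, and no member that was higher at day 11 had an unadjusted p under 0.05 in edgeR. All 9 clotting factors tested and all 7 complement activation genes tested had a negative log2 difference. The calls depended on single libraries, since edgeR called 12 genes, all lower, without the shNXN library of day 11, 9 without the shControl library of day 11 and 3 without the shControl library of day 9, against 3.39%, 10.8% and 0.517% of all features. With no filter on low counts it called 4, against 0.583%.

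**Figure D2:**
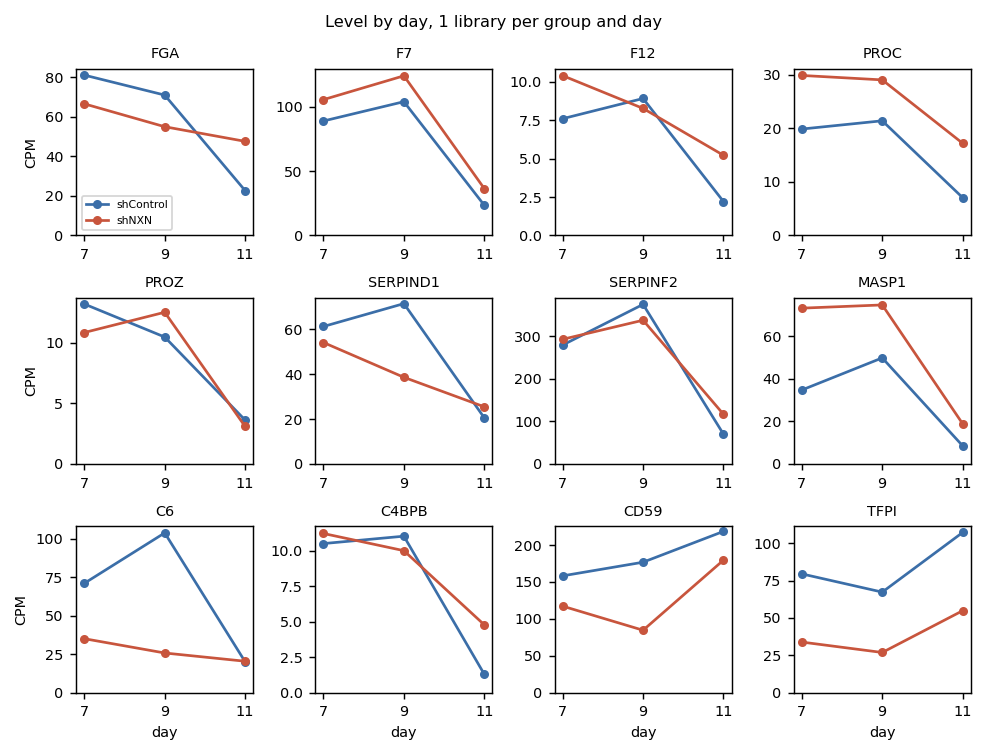
CPM (y, from 0) by day (x) for 12 genes, with 1 library per group and day, shControl in blue and shNXN in red. F7, PROZ, SERPINF2 and MASP1 drop between days 9 and 11 in both groups, whereas CD59 and TFPI are highest at day 11.

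The second question was whether the genes differed between shNXN and shControl cells. The genes of prothrombin, C1R, C1S, C2 and C3 had higher counts in shNXN cells, and those of protein S, TFPI, urokinase, CPB2 and CD46 lower counts. All 10 of these genes had non-overlapping groups. Across the 41 genes the groups did not overlap for 17 (41.5%), 7 with all shNXN libraries higher and 10 with all lower, against 40.6% of all features (19% higher, 21.5% lower). EdgeR's quasi-likelihood test called 0 of 41 genes at an adjusted p under 0.05, against 3.39% of all features. Without adjustment 16 genes had p under 0.05 in edgeR, 5 higher and 11 lower (39.0% against 32.9% of all features). DESeq2 called 12 of 40 with an adjusted p, 5 higher and 7 lower (30% against 24% of all features). Of all features, 11.6% were higher and 21.3% lower without adjustment in edgeR, and DESeq2 called 6.88% higher and 17.1% lower. The same-day libraries of the 2 groups deviated together, and with day as a replicate block edgeR called 9 of 41 genes (22.0%), against 23.3% of all features (6.28% higher, 17% lower). F2, C1R, C1S, C3 and MASP1 were the 5 that were higher, and PROS1, TFPI, PLAU and CD46 the 4 that were lower. The combined share with the block, like that of non-overlapping groups, was near that of all features. By direction, 5 of 41 genes were higher against 6.28% of all features, and 4 of 41 lower against 17%. These are few genes. Without adjustment in edgeR, and in DESeq2, the share of lower genes was not below that of all features, so the split depended on the fit. With RLE factors, library size only or no filter, edgeR called C3, CD46 and PROS1, against 5.87%, 6.6% and 4.22% of all features. Without the shNXN library of day 11 it called 13, against 25.8%. With only the day 7 and day 9 libraries, a choice made after seeing the data, edgeR called 20 of 40 genes, 6 higher and 14 lower, against 31.8% of all features. The median log2 fold change was -0.36 over the 41 genes, with 24 lower, against 0.03 over all features. By day the median log2 difference was -0.26, -0.49 and 0.19 on days 7, 9 and 11.

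**Figure D3:**
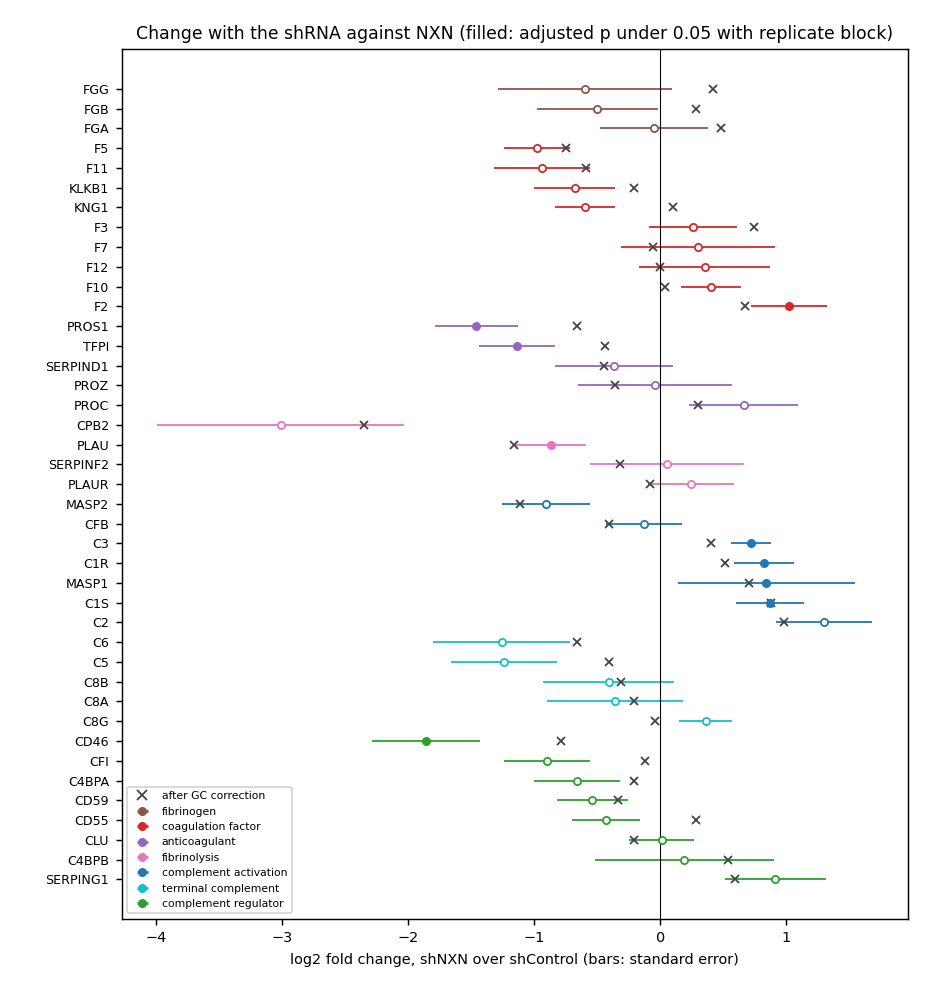
log2 fold change of shNXN over shControl (x, circles with standard error bars) for the 41 genes tested, by class, filled where edgeR's adjusted p with the replicate block was under 0.05. Crosses give the value after correction for GC content, which moves CD46 from -1.86 to -0.79 and leaves C1S at 0.88.

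Of the clotting factors, F2 was at 26.0, 25.8 and 14.1 CPM in shControl cells on days 7, 9 and 11 and at 53.4, 48.2 and 32.4 CPM in shNXN cells. Each shNXN library was above all shControl libraries. The log2 fold change was 1.02 (SE 0.30, edgeR adjusted p = 0.0806), or 1.04 with the replicate block (SE 0.14, adjusted p = 0.0157). F10 and F7 had log2 fold changes of 0.40 and 0.30 (SE 0.24 and 0.61). They were higher in the shNXN library of each day, but the groups overlapped. F5 was at 167, 222 and 124 CPM in shControl and at 88.4, 66.7 and 106 CPM in shNXN cells. All shNXN libraries were lower, and the log2 fold change was -0.98 (SE 0.26, edgeR adjusted p = 0.0697, 0.0643 with the block and 0.00747 from DESeq2). Of the contact-phase genes, F11, KLKB1 and KNG1 had log2 fold changes of -0.94, -0.68 and -0.60, and F12 went the other way, at 0.35. F3 had 0.26.

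PROS1, the cofactor of activated protein C, was at 89.1, 75.1 and 55.2 CPM in shControl and at 20.1, 19.6 and 40.2 CPM in shNXN cells. The groups did not overlap, with shNXN highest and shControl lowest at day 11. The log2 fold change was -1.46 (SE 0.33, edgeR adjusted p = 0.0575), or -1.52 with the block (SE 0.36, adjusted p = 0.0408). TFPI, which blocks factor VIIa with tissue factor, was at 79.5, 67.3 and 107 CPM in shControl and at 33.8, 26.9 and 54.9 CPM in shNXN cells. It was lower in shNXN cells on each day, with a log2 fold change of -1.14 (SE 0.30, edgeR adjusted p = 0.0708), or -1.17 with the block (SE 0.13, adjusted p = 0.0142). PROC, SERPIND1 and PROZ had log2 fold changes of 0.66, -0.37 and -0.04 with overlapping groups. In fibrinolysis PLAU was at 14.0, 7.63 and 10.1 CPM in shControl and at 6.39, 5.39 and 5.54 CPM in shNXN cells. The shNXN libraries were close together and all lower, with a log2 fold change of -0.87 (SE 0.28, edgeR adjusted p = 0.0939 and 0.0447 with the block). CPB2 was at 11.5, 14.1 and 3.07 CPM in shControl and at 0.791, 0.0613 and 2.71 CPM in shNXN cells. The groups were far apart on days 7 and 9 and close at day 11. The log2 fold change was -3.01 (SE 0.98, edgeR adjusted p = 0.0959, 0.104 with the block and 0.0102 from DESeq2). PLAUR and SERPINF2 had log2 fold changes of 0.24 and 0.05 with overlapping groups.

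C3 was at 1645, 1519 and 1510 CPM in shControl and at 2994, 2080 and 2646 CPM in shNXN cells. The shControl libraries differed little, and all shNXN libraries were higher. The log2 fold change was 0.72 (SE 0.16, edgeR adjusted p = 0.0534), or 0.71 with the block (SE 0.12, adjusted p = 0.0222). The genes of the C1 proteases differed by similar amounts. C1R was at 11.2, 11.8 and 8.28 CPM in shControl and at 21.9, 18.4 and 15.02 CPM in shNXN cells, and C1S at 10.9, 11.1 and 6.50 against 20.1, 16.7 and 15.27 CPM. Neither gene's groups overlapped, and the log2 fold changes were 0.82 and 0.87 (SE 0.24 and 0.27, edgeR adjusted p = 0.0791 and 0.0864, 0.0301 and 0.0345 with the block). C2, which C1S cleaves, was at 1.25, 1.42 and 1.17 CPM in shControl and at 4.44, 3.13 and 1.87 CPM in shNXN cells, with a log2 fold change of 1.30 (SE 0.38, edgeR adjusted p = 0.0814, 0.0519 with the block and 0.0295 from DESeq2). C2 lies beside CFB on chromosome 6, and CFB had a log2 fold change of -0.13. MASP1 overlapped between the groups and varied with day in both, and its log2 fold change was 0.84 (SE 0.70, edgeR adjusted p = 0.412), or 0.93 with the block (SE 0.16, adjusted p = 0.0243). MASP2 went the other way, at -0.91 (adjusted p = 0.128 from edgeR). In the terminal pathway C5 and C6 had log2 fold changes of -1.24 and -1.26 (SE 0.42 and 0.54, edgeR adjusted p = 0.105 and 0.153), which became -0.41 and -0.66 after the GC correction and -0.27 and -0.30 on the log2(FPKM + 1) scale. C6 was at 71.1, 104 and 20.1 CPM in shControl and at 35.1, 25.7 and 20.4 CPM in shNXN cells, so the groups met at day 11. C8G, C8A and C8B had log2 fold changes of 0.36, -0.36 and -0.41.

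**Figure D4:**
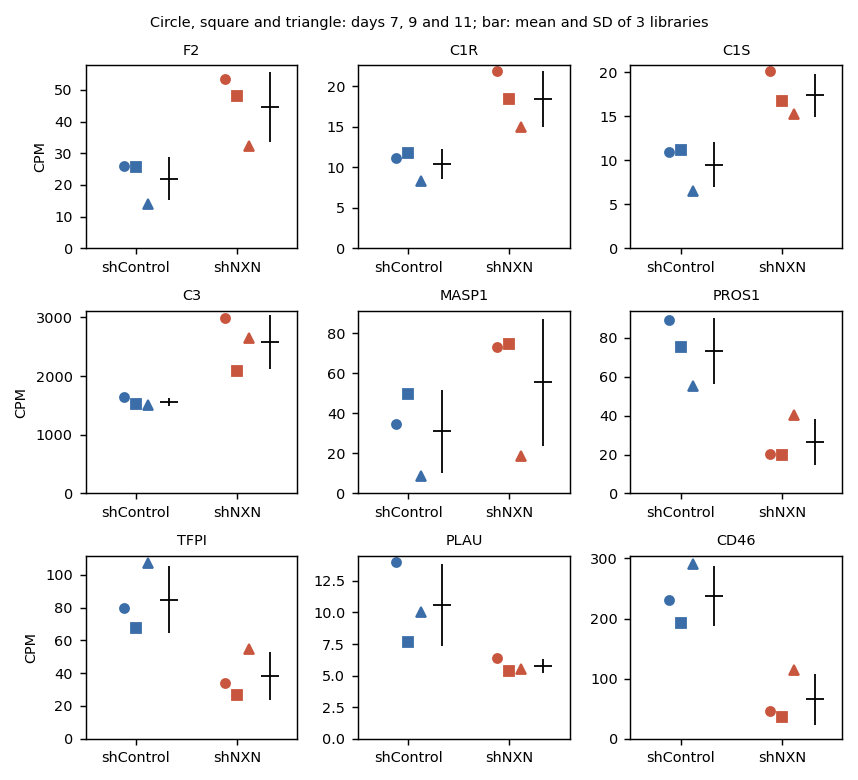
CPM (y, from 0) of the 9 genes with an adjusted p under 0.05 from edgeR with the replicate block, in the 3 shControl (blue) and 3 shNXN (red) libraries, with the mean and SD of each group. F2, C1R, C1S and C3 lie higher and PROS1, TFPI, PLAU and CD46 lower in each shNXN library than in each shControl library, and MASP1 overlaps.

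CD46 had the largest log2 fold change among the regulators. It was at 230, 193 and 291 CPM in shControl and at 45.9, 36.4 and 114 CPM in shNXN cells. All shNXN libraries were lower, and in both groups day 11 was highest. The log2 fold change was -1.86 (SE 0.43, edgeR adjusted p = 0.0586), or -2.03 with the block (SE 0.24, adjusted p = 0.0147), and on the log2(FPKM + 1) scale it was -1.69 with an adjusted p of 0.0447 from limma, the only one of the 41 genes called there, against 2.04% of all features. CFI was lower in each shNXN library, with a log2 fold change of -0.90 (SE 0.34, edgeR adjusted p = 0.123), or -0.12 after the GC correction. C4BPA, CD59 and CD55 had log2 fold changes of -0.66, -0.54 and -0.43 with overlapping groups. SERPING1, at 0.429 to 0.590 CPM in shControl and 0.613 to 1.10 CPM in shNXN cells, had 0.91 (adjusted p = 0.161 from edgeR). CLU and C4BPB had 0.01 and 0.19 (SE 0.26 and 0.71).

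By class, 5 of 7 complement activation genes had a positive log2 fold change, with a median of 0.82. For 4 of 5 terminal components and 5 of 8 regulators it was negative, with medians of -0.41 and -0.48. Of all 14071 features, 7229 were higher and 6842 lower. Median transcript GC content was 53.2, 46.6 and 44.1% in these classes, and after the GC correction their medians were 0.51, -0.31 and -0.17. Without the correction, the 3 fibrinogen chains were at -0.05, -0.50 and -0.60 for FGA, FGB and FGG (SE 0.43, 0.48 and 0.69). Their FPKM values gave the other sign, with a median of 0.31 on the log2(FPKM + 1) scale, and so did FGA with the replicate block, at 0.12, so the direction depended on the unit and on the fit. CFB also had the other sign in FPKM.

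The fold changes of the 41 genes followed transcript GC content. Of 22 genes with a GC content below the median of the features tested (48.4%), 19 had lower counts in shNXN cells, and of the 19 above it 14 had higher counts. Spearman's rank correlation between log2 fold change and GC content was 0.76 over the 41 genes and 0.79 over the 12740 features with a known GC content. Within single libraries the deviation from the mean of all libraries had a Spearman correlation with GC content of -0.71 to -0.37 in shControl and of 0.09 to 0.75 in shNXN cells. Genes share these libraries, so these correlations are descriptions. After each library's GC trend was removed, the Spearman correlation over the 41 genes was 0.29, the median size of the log2 fold change was 0.41 in place of 0.66, and edgeR called 0 of 41 genes without the block (against 0.0355% of all features) and 0 with it (against 0.924%). Without adjustment 12 genes had p under 0.05 in edgeR without the block (against 17.1% of all features) and 15 with it (against 21.4%). F2 then had a log2 fold change of 0.67, C3 of 0.40, C1R of 0.51 and C1S of 0.88. PROS1, TFPI and CD46, with GC contents of 40.5, 41.5 and 37.7%, had -0.66, -0.44 and -0.79, and PLAU, at 54.0%, had -1.16. The sign changed for 10 genes, namely FGA, FGB, FGG, F7, KNG1, PLAUR, SERPINF2, C8G, CD55 and CLU. The correction removes any group difference that follows GC content, whatever its origin, and the origin was not tested.

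The third question was whether the group difference changed with day. EdgeR called 0 of 41 genes and 0% of all features for the interaction of group with day number, and DESeq2 called 0 of the genes as well. Without adjustment 1 of 41 genes (2.44%) had p under 0.05 in edgeR, against 1.08% of all features. It was PROS1, whose log2 difference between the groups was -2.14, -1.93 and -0.46 on days 7, 9 and 11 (unadjusted p = 0.0192, adjusted p = 1 from edgeR). CPB2 had differences of -3.66, -6.25 and -0.17, C5 of -1.65, -2.25 and 0.05, and C6 of -1.02, -2.01 and 0.02, with unadjusted p values of 0.116, 0.105 and 0.434 from edgeR. For F2 the differences were 1.03, 0.90 and 1.19 and for C3 0.86, 0.45 and 0.81. With 1 library per group and day, an interaction of this size could not be told from the spread between libraries.

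Another 53 genes of the same pathways, among them receptors, cofactors and other inhibitors, were listed, and 28 of them passed the filter on low counts. EdgeR called 0 of the 28 between shNXN and shControl cells, against 3.39% of all features, and 7 had an unadjusted p under 0.05 (3 higher, 4 lower), against 32.9%. With the block it called 6 (3 higher, 3 lower), against 23.3%, and DESeq2 called 5 of 27, against 24%. Their median log2 fold change was 0.08. ANXA2 (annexin A2, a docking protein for plasminogen on the cell surface), C1QBP (a binding protein of C1q) and A2M (α2-macroglobulin, a protease trap) were the highest, with median FPKM values of 590, 308 and 223. A2M was at 1444 ± 554 CPM in shControl and 884 ± 122 CPM in shNXN cells (SD, n = 3), with an adjusted p of 0.126 from edgeR. Of the other 25 genes, 12 had 0 counts in each library.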

How the data were processed

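RNA had been sequenced from Hep3B cells, 3 shControl and 3 shNXN libraries. The authors deposited a table of estimated counts and a table of FPKM values for the same features. The aligner and the counting program are not given in the sources used here. The submitters' processing notes name the builds GRCm38 and mm10, which are mouse builds, although the features carry human Ensembl identifiers, so coordinates are those of RefSeq (GRCh38.p14) and transcript GC content that of the longest GENCODE 29 transcript, not of the deposited files. Estimated counts can share a read between overlapping transcripts, and 10 of the 48 genes had a count that was not whole in at least 1 library. Of 20314 Ensembl identifiers 19433 had a symbol, and 0 columns lacked a sample. The totals of 15349382 to 16332589 counts set the depth.

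The counts, rounded, went into edgeR 4.0.16 (R 4.3.3) with TMM factors and filterByExpr, and quasi-likelihood p-values were adjusted by Benjamini-Hochberg over all 14071 features, with a threshold of 0.05. The SE is the log2 fold change divided by the root of F. Day 11 was compared with day 7 with group and day as terms. CPM values are counts scaled to the library total of the features that passed the filter, adjusted by the TMM factor of the library. The replicate numbers in the labels follow the days, and deviations of same-day libraries from their group means correlated at 0.30, 0.31 and 0.45, so the fit with day as a replicate block is given where it changes a call. Alternatives were DESeq2 1.42.0, RLE factors, library size only, other count filters, the block, a GC correction (natural spline with 5 degrees of freedom as an offset), limma 3.58.1 on log2(FPKM + 1) and log2(FPKM + 0.1), a linear trend over days, and each library left out. The fit on days 7 and 9 alone was added after seeing the data. No pair of replicates agreed within sampling noise (chi-square per gene 20.1 to 77.8).

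The genes and lists were chosen with earlier results of these data known. A rule picked 24 genes to follow through the alternative fits. It took those called by edgeR in the group comparison, with or without the block, or by day. It also took the 5 largest log2 fold changes each way and the 2 highest median FPKM values of each class. F5, PROC, PROZ and FGG were given by library outside this rule. Some genes within it, such as F10, SERPIND1, C8G and CD59, were given in less detail. Of the other pathway genes, the rule took those called by edgeR without the block, of which there were 0 in either comparison, and the 3 highest. The remaining genes are given by their values. On simulated data the group test recovered 75.6% of changed genes (13938 genes, 11 false calls) and the day test 49.5% (13939 genes, 5 false calls). The simulated spread was that of the fit with day as a block, and no GC trend was simulated. For the group test no day differences were simulated either. Neither figure can therefore be taken as the recovery in these libraries. Promoter windows were matched by symbol for 40 of the 48 genes.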

Additional observations from a re-analysis of the deposited data

How the results depend on the processing

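For shNXN against shControl, 0 of the 41 genes were called by edgeR. The count was 12 with DESeq2, 3 each with RLE factors, with no filter and with library size only (C3, CD46 and PROS1 each time), 9 with the replicate block, 1 with limma on log2(FPKM + 1) and 20 with days 7 and 9 only, and it ran from 0 to 13 when 1 library was left out. The 13 came without the shNXN library of day 11, where 25.8% of all features were called. Their number was 0, as without any change, with at least 10 counts in every library, limma on log2(FPKM + 0.1), the GC correction and the block with GC correction, where 12 and 15 genes had an unadjusted p under 0.05 in edgeR with the GC correction and with both. For day 11 against day 7 the count of 0 became 11 with DESeq2 and 4 with no filter (F7, MASP1, PROZ and SERPINF2), and ran from 0 to 12 with 1 library left out. The interaction had 0 calls in each fit. NXN kept its direction in each fit, from -1.90 to -1.67 with 1 library left out, and its adjusted p from edgeR then ran from 0.00131 to 0.225, above 0.05 without the shControl library of day 7 (0.131) or day 11 (0.0633) or the shNXN library of day 7 (0.225) or day 9 (0.162). With the replicate block NXN had -1.82 (adjusted p = 0.0142 from edgeR). The block changed no call beyond the 9 genes named.

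None of the 24 genes picked by the rule was called by edgeR without the block. Their signs changed in 33 of 405 refits of the group comparison and 22 of 288 of the day comparison. In the group comparison FGA, at -0.05, was 0.01 with no filter, 0.48 with GC correction, 0.12 with the block, 0.63 with both, 0.17 and 0.16 with limma at pseudocounts 0.1 and 1, and -0.37 to 0.32 with 1 library left out. FGB, called at -0.90 with days 7 and 9 only (edgeR adjusted p = 0.0135), was 0.28 with GC correction, 0.49 with block and GC correction, and 0.39 and 0.36 with limma at 0.1 and 1. With GC correction, alone and with the block, PLAUR was -0.08 and 0.00, SERPINF2 -0.32 and -0.16, C8G -0.04 and -0.03 and CLU -0.21 and -0.17, and F7 was -0.06 with GC correction alone. CLU was 0.00 with at least 10 counts in every library and -0.15 with days 7 and 9 only, where SERPINF2 was -0.05. With 1 library left out F7 ran from -0.05 to 0.72, SERPIND1 from -0.68 to 0.00, SERPINF2 from -0.32 to 0.57 and CLU from -0.17 to 0.23. In the day comparison PROS1, CPB2 and C5 were -0.20, -0.33 and -0.35 with GC correction and -0.19, -0.32 and -0.64 with limma at 1, C8G was 0.00 with DESeq2 and with RLE factors, and SERPING1 was 0.10 with limma at 1. With 1 library left out FGB ran from -1.81 (called without the shNXN library of day 11, edgeR adjusted p = 0.0157) to 0.06, PROS1 from -0.64 to 0.86 (called without the shControl library of day 11, edgeR adjusted p = 0.0305), CPB2 from -2.18 to 2.46, C5 from -1.02 to 0.91 and C8G from -0.13 to 0.14. The cause of these changes was not tested. Depth limits the 7 genes below the filter, which had too few counts for a test.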

Other observations

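SERPINE2 (protease nexin-1, which inhibits thrombin), which is not among the 48 genes and which was named only once its values had been seen, had higher counts at day 11. It was at 38.0, 39.0 and 233 CPM in shControl cells on days 7, 9 and 11 and at 40.95, 40.3 and 173 CPM in shNXN cells. Both day 11 libraries lay above all earlier ones. The log2 difference of day 11 from day 7 was 2.35 (SE 0.19, edgeR adjusted p = 0.0904, and 1.04e-17 from DESeq2). ANXA2 was higher as well, by 0.90 (adjusted p = 0.141 from edgeR and 5.83e-04 from DESeq2), while SERPINA5, the protein C inhibitor, was lower, at -0.99 (adjusted p = 0.144 from edgeR and 2.09e-04 from DESeq2). Of the 28 other pathway genes tested, both day 11 libraries were above all earlier ones for 6 and below them for 8, against 10.9% and 11.5% of all features.

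LMAN1 and MCFD2, whose products form the receptor that carries factors V and VIII out of the endoplasmic reticulum, were likewise named once their values had been seen. Their log2 fold changes in shNXN cells were -0.60 and -0.57 (adjusted p = 0.0740 and 0.0741 from edgeR, 0.0302 and 0.0385 with the replicate block). LMAN1 was at 167 ± 27.7 CPM in shControl and 110 ± 10.4 CPM in shNXN cells, and MCFD2 at 203 ± 21.7 and 137 ± 20.8 CPM (SD, n = 3). The 2 groups did not overlap for either gene in CPM. After the GC correction the log2 fold changes were 0.44 and -0.17 (adjusted p = 0.377 and 0.614 from edgeR), and on the log2(FPKM + 1) scale 0.42 and -0.06, so the direction of LMAN1 depended on the unit and on the correction.

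CEBPA, a liver-enriched factor of the C/EBP family whose motif was searched, was at 437, 629 and 195 CPM in shControl and at 706, 998 and 683 CPM in shNXN cells. The groups did not overlap, and shNXN cells were higher by 0.92 on the log2 scale (edgeR adjusted p = 0.154), or by 1.05 with the replicate block (adjusted p = 0.0418) and 0.57 after the GC correction (adjusted p = 0.345). The log2 difference of day 11 from day 7 was -1.16 in shControl and -0.05 in shNXN cells, and -0.57 over both (adjusted p = 0.340 from edgeR).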
